A study of Danio rerio with 3 samples.

Results

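The members were the oligos whose title contained the word tubulin, kinesin or dynein, in upper or lower case, with control spots left out. They numbered 179 of 34024 oligos on the arrays, of which 106 were tubulin oligos, 35 kinesin oligos and 38 dynein oligos. An oligo is a long printed DNA strand that captures 1 transcript or several transcripts of near-identical sequence. FoxH1 morphants were zebrafish embryos injected with a morpholino against FoxH1, a forkhead factor that acts with Smad proteins in Nodal signalling, and control embryos were injected with a control morpholino. A morpholino is an antisense strand that blocks translation or splicing, so it need not lower its own target transcript. Each of 3 arrays carried RNA from 1 pool of 50 FoxH1 morphants together with RNA from 1 pool of 50 control embryos, all whole embryos at 40% epiboly. The sources used here give no strain, morpholino target site or dose.

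Microtubules are hollow filaments built from dimers of alpha- and beta-tubulin, and gamma-tubulin, held in a ring complex, starts their growth. Kinesins are motors that mostly walk towards the plus end of a microtubule. Some of them carry cargo, and others build and move the mitotic spindle. Dyneins walk towards the minus end: cytoplasmic dynein carries cargo and positions spindles, and axonemal dyneins drive the beating of cilia. A dynein motor consists of heavy chains, which hold the motor domain, and of intermediate, light intermediate and light chains. In the early zebrafish embryo, microtubules also run through the yolk and take part in the spreading of the blastoderm over it. Whole embryos were used, so fewer cells of a type and less RNA per cell cannot be told apart in any value below.

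Values are log2 ratios of morphant over control intensity, normalised within each array, with the SD over the arrays (n = 3). A ratio of -1 on this scale means that the morphant signal was at 1 over 2 of the control signal. The dye on morphant RNA was Cy3 for arrays 1 and 2, while array 3 was the swap with Cy5. Morphant columns had median oligo intensities of 187, 144.2 and 377.2 over the 3 arrays, against 458.4, 331.9 and 159.4 for control columns. An oligo was tested if its spots had a quality score above 0 on all 3 arrays and rose above the local background on at least 2. Of 34024 oligos 26191 were tested, among them 146 members: 85 for tubulin, 30 for kinesin and 31 for dynein. All 33 untested members had a quality score of 0 on some array.

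The direction of array 3 rests partly on the data, because the labels give dyes and the spot tables give columns named red and green. With the columns read by sample, the ratios of all tested oligos correlated at r = 0.82 between arrays 1 and 2, at r = -0.35 between arrays 1 and 3 and at r = -0.47 between arrays 2 and 3. Over the 146 members the same values were 0.82, -0.28 and -0.43. These are correlations across oligos, which share dyes and array and are not independent replicates. Local background was higher in red than in green at 5.50% of spots on array 1, at 5.15% on array 2 and at 94.1% on array 3. Random control spots correlated at r = 0.93 between arrays 1 and 2, and at r = -0.73 between their mean and array 3 (132 spots). The reading by sample rests on these values. All 10 tested mesendoderm marker oligos and all 5 for enveloping layer keratins were lower on all 3 arrays as read. At 49.6% of all tested oligos, array 3 had the sign opposite to the one shared by arrays 1 and 2. The direction of array 3 was not taken as settled. Medians and counts of the members and the means of the main oligos are therefore also given with its sign turned. Statements on shared signs and on the order of oligos hold for array 3 as read by sample unless the turned value is named.

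The members gave no oligo that passed the test and a count of shared signs close to that of the whole array. In limma, with Benjamini-Hochberg adjustment over all 26191 oligos, 0% of oligos and 0 of 146 members passed an adjusted p of 0.05. At an unadjusted p below 0.05, limma gave 11.3% of all oligos and 23 members. A one-sample test without moderation also gave 0 members, and 26 at an unadjusted p below 0.05, beside 12.0% of all oligos. The lowest adjusted p in limma was 0.283, reached among the members by 2 dynein light chain oligos. Of the members, 28 were lower in morphants on all 3 arrays, or 19.2% against 17.6% of all tested oligos. Another 18 were higher in morphants on all 3 arrays, or 12.3% against 17%. The other 100 members had mixed signs. A mean below -1 was found for 8 members and for 4.25% of all tested oligos, and a mean above 1 for 5 members and for 4.97% of all. Turning array 3 made 28 members lower and 48 higher on all 3 arrays, or 19.2% and 32.9%, against 24.7% and 24.9% of all oligos. It let 13 members pass limma's adjusted p of 0.05, 3 lower and 10 higher, against 9.58% of all oligos. The 3 largest of these by size were MWG8A17 at 3.41, CP1D16 at 2.67 and MWG20N15 at 2.53. They are for a gamma-tubulin interacting protein, a kinesin and a beta-tubulin. In limma their adjusted p was 0.006, 0.012 and 0.006. With array 3 as read and a dye term, their log2 ratios were -0.15, 0.40 and -0.05. If the reading by sample holds, turning array 3 adds a dye effect over the arrays. Dye and morpholino then cannot be told apart in turned means. Without array 3, where both arrays have the same dye orientation, 39 members passed, 21 lower and 18 higher in morphants, against 23.1%. The 21 lower were 11 alpha-tubulin, 4 beta-tubulin, 5 dynein and 1 kinesin oligos, and 4 of the 5 dynein oligos were light chains. The 18 higher were 10 tubulin, 5 kinesin and 3 dynein oligos, among them 2 for alpha-tubulin, 4 for beta-tubulin and 3 for the gamma-tubulin complex. On those arrays alone the dye and the morpholino cannot be told apart.

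Many members had opposite signs in the 2 dye orientations. For 76 of 146 members (52.1%) arrays 1 and 2 shared a sign and array 3 had the other, close to the 49.6% of all tested oligos. The clearest example was MWG8A17, whose title names a gamma-tubulin interacting protein of Xenopus, with log2 ratios of 3.44, 3.19 and -3.62 on arrays 1, 2 and 3. MWG20N15, a beta-tubulin oligo, followed with 2.50, 2.50 and -2.60. Both are far from 0 on every array and point opposite ways on array 3, so their means describe little. Split at the median intensity of all tested oligos, 26 of 91 brighter members and 2 of 55 dimmer members were lower on all 3 arrays, beside 21.8% and 13.3% of all brighter and dimmer oligos. Array 3 stood opposite to the other 2 arrays at 39 of the brighter and 37 of the dimmer members, so these share a sign once it is turned. Over all tested oligos this held for 6035 of 13096 brighter and 6949 of 13095 dimmer ones. This split was made after the values had been seen and carries no test.

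The 3 groups differed in their counts of shared signs. Over all tested oligos, 17.6% were lower and 17% higher on all 3 arrays as read. Kinesin oligos had a median log2 ratio of 0.23, with medians of 0.43, 0.36 and 0.03 on arrays 1, 2 and 3. Of 30 kinesin oligos, 10 (33.3%) were higher on all 3 arrays and 4 (13.3%) were lower. Tubulin oligos had a median of 0.03, with -0.01, 0.04 and -0.39 on the arrays, and the split ran the other way: 20 of 85 (23.5%) were lower on all 3 arrays and 5 (5.88%) were higher. Dynein oligos had a median of -0.05, with -0.44, -0.05 and -0.00 on the arrays. Of 31 dynein oligos, 4 (12.9%) were lower and 3 (9.68%) higher, both below the shares of all oligos. The median of all tested oligos was 0.02. Tubulin minus kinesin, taken between group medians, was -0.43, -0.32 and -0.42 on arrays 1, 2 and 3, all below 0. Tubulin minus dynein was 0.43, 0.10 and -0.39, and kinesin minus dynein 0.87, 0.42 and 0.04. The difference between tubulin and dynein thus changed sign between arrays. With array 3 as read and a dye term, the medians were -0.09 for tubulin, 0.17 for kinesin and -0.14 for dynein. Tubulin minus kinesin was then -0.26. With array 3 turned, the medians were 0.13 for tubulin, 0.24 for kinesin and -0.08 for dynein, and tubulin minus kinesin was -0.11. The counts then were 15 lower (17.6%) and 33 higher (38.8%) of 85 for tubulin. For kinesin they were 3 lower (10%) and 9 higher (30%) of 30, and for dynein 10 lower (32.3%) and 6 higher (19.4%) of 31. Over all tested oligos the turned shares were 24.7% lower and 24.9% higher. More tubulin oligos were lower than higher with array 3 as read, and more were higher than lower with it turned. No test was made of these medians, since oligos of a group share targets and are not replicates.

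Most alpha-tubulin oligos of shared sign were lower in morphants with array 3 as read. Of 44 alpha-tubulin oligos 35 were tested. On all 3 arrays, 15 of them (42.9%) were lower in morphants and 1 (2.86%) was higher, beside 17.6% and 17% of all tested oligos. The median of the 35 was -0.31, with -0.13, -0.02 and -0.66 on arrays 1, 2 and 3. With a dye term it was -0.32, without array 1 it was -0.35 and without array 2 it was -0.45. Without array 3 it was -0.05, and with array 3 turned it was 0.06. Turned, 2 oligos were lower and 12 higher on all arrays, beside 24.7% and 24.9% of all oligos. The low alpha-tubulin median thus stayed with a dye term, but it depends on array 3 and on how that array is read. Without array 3, 11 of the 35 passed limma's adjusted p of 0.05 as lower and 2 as higher, against 23.1% of all oligos. Dye and morpholino cannot be told apart there.

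Oprn2G09, titled as a full zebrafish alpha-tubulin message, had log2 ratios of -1.06, -1.01 and -0.98 on the 3 arrays, a mean of -1.02 ± 0.04 (SD). Its spot intensities were 829.4, 463.1 and 1263 in the morphant column, against 5568.9, 2967.6 and 921.5 in the control column. In limma its unadjusted p was 0.004 and its adjusted p 0.286. The morphant column was dimmer on arrays 1 and 2 and brighter on array 3 before normalisation, which set each array's own centre to 0. Turning array 3 brought its mean to -0.36. CP3O14, with the same title and accession, was dim and gave -1.13, 1.14 and -2.74. The 2 oligos for this message thus did not share a sign on every array.

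Several further oligos gave means near that of Oprn2G09. After the lowest of the 15, the next 10 by mean, Oprn2G09 among them, lay between -1.08 and -0.72. MWG1I2, titled after an icefish alpha-tubulin (Chionodraco), had -0.95, -0.99 and -0.90 and a mean of -0.95 ± 0.05. MWG18M5, titled after salmon alpha-tubulin (Oncorhynchus keta), had -1.27, -1.11 and -0.86 and a mean of -1.08 ± 0.20. MWG31C2, titled after a Notothenia alpha-tubulin, had -1.10, -1.02 and -0.75. In these 3, as in Oprn2G09, the arrays differed by less than the distance of the mean from 0. Turned, the means were -0.35 for MWG1I2, -0.50 for MWG18M5 and -0.46 for MWG31C2. Alpha-tubulin coding regions are alike in sequence, so such oligos may read the same transcripts and are not separate measurements.

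Oligos that share a best hit did not all agree. The salmon alpha-tubulin was the best hit of 6 tested oligos, with means from -1.08 to -0.08 and 4 of them lower on all arrays. An icefish alpha-tubulin was the best hit of 4, with means from -0.95 to 0.31, and 3 were lower. The lowest alpha-tubulin mean of shared sign belonged to MWG35N20, titled after alpha-tubulin 3 of Drosophila, with -2.78, -1.85 and -0.46 and a mean of -1.70 ± 1.16. Its morphant intensity on array 1 was 15.9, its arrays spread widely, and its turned mean was -1.39. MWG21K8, titled after an electric ray alpha-tubulin (Torpedo), was the only alpha-tubulin oligo higher on all 3 arrays as read, with 0.29, 0.21 and 0.33 and a mean of 0.28 ± 0.06, or 0.06 turned. By brightness, a split made after the values had been seen, 13 of 19 brighter oligos were lower on all arrays, against 2 of 16 dimmer ones. Over all tested oligos these shares were 21.8% of the brighter and 13.3% of the dimmer ones. The median of the brighter alpha-tubulin oligos was -0.62, and -0.70 with a dye term. With array 3 turned, 0 of the 19 brighter oligos were lower and 5 higher, and 2 of the 16 dimmer ones were lower and 7 higher. Over all tested oligos the turned shares were 23.9% lower and 22.2% higher for brighter ones, and 25.6% and 27.5% for dimmer ones. The turned means of alpha-tubulin oligos reached 1.84 at MWG5L3, with an adjusted p of 0.013 in limma. This oligo had 1.58, 2.03 and -1.90 on the arrays as read, and -0.05 with a dye term.

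Beta-tubulin oligos had no common direction. Of 48, 40 were tested, with a median of 0.06. On all arrays 4 (10%) were lower and 4 (10%) higher, beside 17.6% and 17% of all tested oligos. On arrays 1, 2 and 3 the median was 0.09, 0.10 and -0.12. It was 0.03 with a dye term and 0.14 with array 3 turned. The turned counts were 11 lower (27.5%) and 15 higher (37.5%), beside 24.7% and 24.9% of all tested oligos. Alpha minus beta, between medians, was -0.22, -0.11 and -0.54 on the arrays, all below 0. This difference was -0.35 with a dye term and -0.08 with array 3 turned.

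MWG2C20, titled after a Notothenia beta-tubulin, was the lowest with a shared sign as read. Its log2 ratios were -0.947, -0.889 and -0.997, with a mean of -0.94 ± 0.05, close to the alpha-tubulin values. Intensities were 926.3, 443.9 and 1228.1 in the morphant column, against 5815.7, 2578.9 and 907.9 in the control column. The 3 other oligos with the same best hit gave means from 0.04 to 0.80. MWG26A15, titled after a Xenopus beta-tubulin, had -0.66, -0.76 and -0.54. MWG23I6, titled after neural class II beta-tubulin, a form of developing neurons, had -0.92, -0.63 and -0.13. On the other side stood MWG37G8, with 0.35, 0.64 and 0.43 and a mean of 0.48 ± 0.15, and MWG35P4, with 0.47, 0.24 and 0.26 and a mean of 0.32 ± 0.13. Both carry cod beta-1 tubulin (Gadus) as best hit, as do 2 further oligos of mixed sign. The oligo titled as zebrafish class I beta-tubulin, Oprn2D19, had -0.31, -0.55 and 0.14. The turned means were -0.28 for MWG2C20, 0.19 for MWG37G8 and 0.15 for MWG35P4. Beta-tubulin oligos of shared sign thus lay on both sides of 0.

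The proteins that start or prepare microtubules were measured by few oligos. The 2 gamma-tubulin oligos, MWG21J20 and Oprn4D22, were below 0 on arrays 1 and 2 and above 0 on array 3, with a median of -0.66 without array 3 and -0.65 with it turned. Of 6 tested oligos for the gamma-tubulin ring complex, 1 (16.7%) was lower on all arrays and 0 higher, beside 17.6% and 17% of all tested oligos. With array 3 turned, 0 were lower and 4 (66.7%) higher, beside 24.7% and 24.9%. The 1 lower as read was MWG35D15, titled as a gamma-tubulin interacting protein of Xenopus. It had -0.42, -0.53 and -0.07 and a mean of -0.34 ± 0.24. MWG8A17 has the same title and was described above for its opposite signs. Beta-tubulin cofactor A, a chaperone for newly made beta-tubulin, had 0.18, 0.31 and -0.20 at Oprn4P12. Tubulin tyrosine ligase, which restores the terminal tyrosine of alpha-tubulin, had 1.34, 1.53 and -0.39 at MWG15O10. The only delta-tubulin oligo, for a tubulin of centrioles, was not tested.

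Dynein light chains included the lowest mean ratio of shared sign among the members with array 3 as read. All 7 light chain oligos were tested, with a median of -0.82. On all 3 arrays, 4 (57.1%) were lower, 1 (14.3%) was higher and 2 were mixed, beside 17.6% lower and 17% higher of all tested oligos. The median with array 3 turned was -0.28, still below 0. Turned, 1 oligo (14.3%) was lower and 1 (14.3%) higher on all arrays, beside 24.7% and 24.9% of all tested oligos. With array 3 turned, the lowest mean of shared sign was instead -2.07, at the kinesin light chain oligo MWG26B16. The dynein light chain median was -0.81 without array 3, and -0.83 with array 3 as read and a dye term.

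MWG31B23 and MWG27J18 share a best hit, the 8 kd dynein light chain of Drosophila, a small dimeric protein of the LC8 family that also binds many partners outside dynein. MWG31B23 had log2 ratios of -1.62, -1.63 and -1.61 on the 3 arrays, a mean of -1.62 ± 0.01. Its intensities were 277.6, 284.8 and 664.4 in the morphant column, against 2441.9, 2690 and 755.5 in the control column. MWG27J18 had -1.79, -1.46 and -1.59, a mean of -1.61 ± 0.16, and intensities of 1320.3, 699.8 and 2100.5 in the morphant column, against 15889.8, 6533.1 and 2334.2 in the control column. The 2 oligos thus differed in brightness and gave nearly the same ratio. Both had an adjusted p of 0.283 in limma, with unadjusted values of 0.0009 and 0.001. With a dye term, limma's adjusted p was 0.104 for both. With array 3 turned, the means were -0.55 for each.

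MWG33F6 and Oprn6D04 were also lower on all 3 arrays. MWG33F6, titled after an 8 kDa outer arm light chain of the alga Chlamydomonas, had -2.21, -2.20 and -1.09 and a mean of -1.83 ± 0.65. Oprn6D04, titled after human dynein light chain 2, had -0.75, -0.86 and -0.86 and a mean of -0.82 ± 0.06. Its arrays lay close together. All 4 lower light chain oligos have titles of this small light chain type, so they may share transcripts. The titles of the other 3 name different proteins. Oprn5O18, for light chain 2A of the roadblock type, had -0.48, -0.32 and 0.05. The 2 oligos for axonemal light chain 4 were MWG36G15, higher on all arrays at 0.55, 0.20 and 0.31, and Oprn5D09, at 0.66, 0.54 and -0.66. Neither light chain 4 oligo was lower on all arrays. Turned means were -1.11 for MWG33F6, -0.25 for Oprn6D04 and 0.15 for MWG36G15, and Oprn5D09 then shared a sign at 0.62.

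With array 3 as read, no heavy or intermediate chain oligo had a shared sign. Of the 22 tested oligos for heavy and intermediate chains, 0 were lower and 0 higher on all 3 arrays, with means from -0.87 to 0.73. Over all tested oligos the shares were 17.6% lower and 17% higher. Median log2 intensities were 7.24 for axonemal, 7.07 for cytoplasmic and 8.20 for unstated heavy chains, and 7.55 for intermediate chains. All tested oligos had a median of 8.50, and dynein light chains 10.56. Among the dimmer oligos of the whole array, 13.3% were lower and 13.7% higher on all 3 arrays. The part of brightness in the count of 0 was not tested. Turned, 9 (40.9%) were lower and 5 (22.7%) higher on all arrays, beside 24.7% and 24.9% of all oligos. In limma, 3 heavy chain oligos then passed an adjusted p of 0.05, beside 9.58% of all oligos. These were MWG9P14 at 1.87 (adjusted p = 0.015), MWG27B22 at -1.68 (0.026) and MWG32P11 at 1.14 (0.039). With array 3 as read and a dye term, MWG9P14 was at 0.12 and MWG27B22 at -0.35. The heavy chain oligos comprised 6 axonemal or ciliary, 4 cytoplasmic and 9 whose titles state neither. One rat heavy chain was the best hit of 7 oligos, with means from -0.45 to 0.73 and none of shared sign as read. The axonemal heavy chain oligo with the narrowest spread, Oprn9E11, had -0.03, -0.15 and 0.09. The 2 light intermediate chain oligos were both higher on all arrays by small amounts: MWG15D16 had 0.03, 0.06 and 0.35, and MWG32G11 had 0.04, 0.06 and 0.34. Their means of 0.15 ± 0.17 were smaller than their SD, and both means were -0.08 with array 3 turned.

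Kinesins were divided into mitotic and transport members by words in their titles. The title names a mitotic role for 3 oligos, of which 2 were tested. It names a heavy or light chain of kinesin for 14, of which 12 were tested. These 14 were taken as transport members, a role that was assigned from the chain name. The mitotic median was 0.53 and the transport median 0.03. The difference was 0.44, 0.29 and 0.64 on arrays 1, 2 and 3 and 0.50 between the medians of the means, so it was above 0 on each array. The difference was 0.57 with a dye term and -0.022 with array 3 turned. It rests on 2 mitotic oligos and was not tested.

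Both tested mitotic oligos were higher in morphants on all 3 arrays. MWG29B7, titled after the human spindle motor HKSP, a name of Eg5, which pushes spindle poles apart, had 0.87, 0.63 and 0.67 and a mean of 0.72 ± 0.13. Intensities were 696.9, 482.4 and 1679.6 in the morphant column, against 1100.6, 915.2 and 393.8 in the control column. CP1P1, for zebrafish mitotic kinesin-like protein 1, which acts in the midbody during cell division, had 0.41, 0.09 and 0.50 and a mean of 0.33 ± 0.22. The turned means were 0.28 for MWG29B7 and 0.00036 for CP1P1, so the second was then near 0. The third, MWG16B5, titled as mitotic centromere-associated kinesin, had no usable spot on array 2 and gave -2.82 and -0.07 on arrays 1 and 3. Keeping oligos usable on 2 arrays therefore brought the difference to 0.30.

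Zebrafish names and kinesin numbers add further mitotic members. With KIF4A, Eg5 (knsl1, now kif11), Kid, knsl2 (kifc1) and knsl5 (kif23) included, a grouping added after the data had been seen, 10 mitotic and 16 transport oligos were tested. Of these 10, 7 (70%) were higher on all 3 arrays and 1 (10%) was lower, beside 17% and 17.6% of all tested oligos. With array 3 turned, 2 (20%) were higher and 0 lower, beside 24.9% and 24.7%. Several of the 10 are oligos for the same gene, such as knsl2 and kif23, so they are not separate measurements. The median was 0.39, and the difference from the transport oligos was 0.31, 0.50 and 0.29 on the arrays. It was 0.36 with a dye term and 0.08 with array 3 turned. KIF4A, a chromosome-associated motor, had 0.81, 0.61 and 0.55 at Oprn4B03. Kid, which moves chromosome arms, had 0.27, 0.49 and 0.04 at MWG23N3. Zebrafish Eg5 itself had 0.16, 0.01 and 0.17 at Oprn1L03, a mean of 0.11 ± 0.09, well below that of the oligo titled after human HKSP. The 2 oligos for Eg5-type motors therefore shared a sign and not a size. Turned means were 0.29 for Oprn4B03, 0.24 for MWG23N3 and -0.0013 for Oprn1L03.

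The genes with several oligos show how far oligos for 1 message can differ. For knsl2, a minus-end directed spindle kinesin, Oprn3G22 had 0.61, 0.43 and 0.32, MWG6E7 had 1.35, 1.42 and 0.65, and CP1D16 had 2.75, 3.12 and -2.14. For kif23, the mitotic kinesin-like protein 1 above, MWG16G4 had -0.16, -0.18 and -0.13, Oprn4C09 had 0.14, 0.46 and -0.00, and CP1P1 was higher on all arrays. The kif23 oligos thus had all 3 patterns, although MWG16G4 and CP1P1 fall in the same UniGene cluster. MWG7M13, titled only as a kinesin of Xenopus, had 0.99, 0.82 and 0.70 and a mean of 0.84 ± 0.15. It was assigned to neither class. Turned means were 0.37 for MWG7M13, 0.24 for Oprn3G22, 0.70 for MWG6E7 and 2.67 for CP1D16.

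Transport kinesins were spread on both sides of 0. Of 12 tested, 3 (25%) were lower on all 3 arrays, 2 (16.7%) were higher and 7 were mixed, beside 17.6% lower and 17% higher of all tested oligos. With array 3 turned, 1 (8.33%) was lower and 3 (25%) higher, beside 24.7% and 24.9%. MWG37M12, titled after human neuronal kinesin heavy chain, had 1.78, 1.71 and 0.61 and a mean of 1.36 ± 0.66, the highest among kinesins of shared sign as read, and 0.96 turned. MWG16C4, for a light chain, had -0.58, -0.63 and -0.31 and a mean of -0.51 ± 0.17, or -0.30 turned. The 2 oligos titled after the human conventional heavy chain, MWG6C2 and MWG24B5, were both lower, with -0.72, -0.51 and -0.21 at the first and -0.20, -0.21 and -0.10 at the second. CP24B9, also for a light chain, had 0.94, 0.41 and 0.03. Heavy and light chains, which form 1 motor, therefore each included oligos on either side.

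Oligos for proteins that work with microtubules were read from lists of title words, with array 3 as read. The lists were not counted with array 3 turned. Over all tested oligos, 17% were higher and 17.6% lower on all 3 arrays. Of 22 tested oligos for spindle, centrosome and kinetochore proteins, 10 (45.5%) were higher on all 3 arrays and 1 (4.55%) lower, with a median of 0.14. None of them passed the test. MWG10A3, titled after TPX2, which targets a kinesin to the spindle and activates Aurora A, had 1.01, 1.12 and 1.41. MWG37D15, titled after a kinase that acts on polo-like kinase, had 1.56, 0.47 and 1.28. Of 12 tested oligos for dynactin and dynein adaptors, 4 (33.3%) were higher and 1 (8.33%) lower, with a median of 0.27. This list also took in by its words a bicaudal-C and a winged helix nude oligo. Oligos for the dynein regulator LIS1 pointed both ways, from 0.93, 0.84 and 0.98 at CP5C11 to -1.87, -1.03 and -0.15 at Oprn9I05. Of 33 tested oligos for microtubule-associated proteins and regulators, 7 (21.2%) were higher and 5 (15.2%) lower, near the shares of all oligos, with a median of 0.07. Among them stathmin, which holds free tubulin dimers, had 0.44, 0.47 and 0.83 at MWG4P7. A further stathmin oligo, MWG21D11, had mixed signs and a mean of 0.07. MWG30B5, for the stathmin-related RB3, had -1.59, -2.05 and -0.32. The further RB3 oligos MWG16A20, MWG30P24, MWG24N7 and Oprn8P23 had mixed signs, with means of -0.29, -0.06, -0.05 and 0.26. Of 3 tested oligos on the list of axoneme and cilia words, 0 were lower and 1 was higher on all arrays. The 1 higher oligo, CP23P12, is for a ciliary neurotrophic factor receptor, which the list took in by its word alone.

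Markers of other cells were read on the same arrays, with array 3 as read. Over all tested oligos, 17.6% were lower and 17% higher on all 3 arrays. All 5 tested oligos for enveloping layer keratins were lower on all 3 arrays, with means from -2.25 to -0.87, and so were all 10 for mesendoderm genes, from -3.76 to -0.72. Of 6 tested germ cell oligos 3 were higher on all arrays, and the 1 tested neural oligo, for neurog1, was mixed. The part of these cells in the alpha-tubulin, dynein light chain and kinesin values was not tested. The 2 oligos for foxh1 itself had -0.22, -0.11 and 0.18 and 0.19, 0.25 and -0.45, neither with a shared sign.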

How the data were processed

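Zebrafish RNA was measured on 3 two-colour arrays of printed oligos. Per the file headers, each array has red and green columns of mean spot intensity, the local background with its SD, a ratio and a quality score. The deposited intensity values were taken as already background-subtracted. The ratio deposited by the authors is red over green, scaled by an array constant. The authors' deposited log2 values equal minus log2 of that ratio within 0.01. The quality score, deposited by the authors, was 0 for 16.0%, 16.1% and 13.8% of oligos on arrays 1, 2 and 3. These spots were not used. Scanner and software: not given in the sources used here. The design text speaks of 3 independent repeats, and the independence of the arrays rests on it.

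Log2 ratios of green over red were normalised by loess (span 0.3) within each array, and spots of 1 oligo were averaged. Kept oligos exceeded 2 background SDs on at least 2 arrays in either column. limma 3.58.1 in R 4.3.3 was fitted with an intercept and no dye term to all 26191 oligos. Part of a dye effect stays in such a mean, because 1 of 3 arrays was swapped. The script was checked on simulated data. Tables were prepared with Python 3.11.15 and pandas 2.3.3. Titles are those of the array design. Kinesin names were updated through a RefSeq table for assembly GRCz12tu. Oligo sequences were not used here. Alternatives covered the direction of array 3, a dye term, each array left out, background, normalisation, filters, averaging by accession and the kinesin classes. Named oligos are, per group, up to 4 per direction of shared sign by size, every accession with several oligos, classed kinesins and foxh1. Further oligos, chosen after their values were seen, complete the subgroups. The members and lists were chosen with earlier results of these data known.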

Additional observations from a re-analysis of the deposited data

How the results depend on the processing

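The count of members past the threshold was 13 (8.90%) with array 3 turned, against 9.58% of all oligos. When 1 array was left out it ranged from 0 to 39. The 39 (26.7%) were without array 3, against 23.1% of all oligos. The count lower on all arrays ranged from 31 to 56 and the count higher from 23 to 66 when 1 array was left out, since fewer arrays have to share a sign; over all oligos the shares then ran from 20.2% to 42.3% lower and from 19.7% to 41.9% higher. Members higher on all arrays numbered 48 with array 3 turned (32.9% against 24.9% of all oligos) and 32 with loess within print-tip blocks (21.9% against 18.6%). The mitotic minus transport difference was -0.022 with array 3 turned, 0.30 with spots of quality score 0 kept and 0.30 with oligos usable on at least 2 arrays, both of which add the third mitotic oligo. The cause of the other shifts was not tested. The tubulin median lay between -0.13 and 0.13 over the alternatives. The alpha-tubulin median lay between -0.45 and 0.06 and the dynein light chain median between -0.998 and -0.28. Of 40 named oligos, 29 kept 1 sign in every alternative run and 11 did not, and 22 moved by more than their SD in some alternative. Most of the 40 shared a sign over the arrays, which the rule for naming used, so the 29 show little. The test was itself paired, since each log2 ratio pairs the 2 pools of its array. No further pairing was possible, because the arrays form 1 group and no further block exists. The number of arrays limits the precision, and dim oligos spread most.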
